A study of Mus musculus with 9 samples.

Results

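The genes described here build and handle sterols and fatty acids. The set was a list of 38 symbols, of which 37 were found by symbol among the 10716 genes of the expression table, each under the gene identifier that the mouse annotation pairs with that symbol. Hsd17b7 was not analysed here. The list held 19 enzymes that lead to sterols (18 measured), 7 genes that sense, control or move sterols (7 measured) and 12 enzymes that make, lengthen and desaturate fatty acids (12 measured). RNA was sequenced from C2C12 myotubes, multinucleated muscle cells that form when a mouse myoblast line differentiates. The 3 groups, of 3 libraries each, had 24 h of dexamethasone (50 µM) with THSG (10 µM), of dexamethasone (50 µM) without THSG, or of vehicle. Dexamethasone is a synthetic glucocorticoid, and THSG is given in the labels only as an abbreviation. All groups came from one cell line, and no group with THSG alone is among the samples. Whether the replicates of a group were grown as separate cultures is not in the labels, so p-values measure the spread between these libraries, which may be technical.

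Cells make cholesterol from acetyl-CoA through mevalonate, isoprenoid units and squalene, and make fatty acids from the same acetyl-CoA through malonyl-CoA. Both routes are switched on by sterol regulatory element binding proteins (SREBPs). The escort protein SCAP carries an SREBP from the endoplasmic reticulum to the Golgi, where proteases release the active factor, and INSIG proteins hold it back when sterols are plentiful. SREBP-2 acts mainly on sterol genes and SREBP-1c mainly on fatty acid genes. In muscle, sterols and fatty acids supply membranes such as the sarcolemma and the sarcoplasmic reticulum, and the isoprenoid intermediates of the sterol route supply the lipid anchors of prenylated proteins.

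Values are in FPKM, a unit inferred from the numbers, that is, fragments scaled to transcript length and library size. Summed FPKM lay between 400218 and 422379 per library. Every gene of the table was above 1 FPKM in all libraries, so the 37 measured members are those listed above that level throughout. Fold changes are differences of log2(FPKM + 0.1), which understate the change of low genes slightly. A gene is called where the limma test, with Benjamini-Hochberg adjustment over all 10716 genes, gave an adjusted p under 0.05. All 12 myotube markers were in the table. Their summed level was 8166 to 8367 FPKM with dexamethasone plus THSG, 7613 to 8298 FPKM with dexamethasone and 7099 to 7677 FPKM with vehicle. The 5 glucocorticoid response genes checked (Fkbp5, Pdk4, Sgk1, Per1 and Mt2) were all called higher with dexamethasone. Dexamethasone replicate 3 had the highest share of mitochondrially encoded transcripts (14.0% of its FPKM, against a mean of 11.6% over all 9 libraries). Without it, 29 members were called lower with dexamethasone than with vehicle.

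The promoters of several members are shown first, as a description of their letters. Any link between these letters and the expression results that follow was not tested. RefSeq promoter windows (build GRCm38.p6, from 250 bases before to 50 bases after a start site) were matched for 30 of the 38 listed symbols, 16 of them sterol enzymes, 5 regulators or transport genes and 9 fatty acid enzymes. Windows are written 5′ to 3′. Capitals mark CCAAT, the box bound by NF-Y, on either strand (ATTGG where it lies on the opposite strand). They also mark TCACCCCAC, letters of the classical sterol regulatory element bound by SREBPs. Hmgcs1 is shown for the entry to the mevalonate route, Cyp51 for the sterol enzyme with the smallest p, Fasn for the fatty acid branch, Dhcr7 for the one sterol enzyme that was higher, and Elovl6 for the largest fall.
Hmgcs1, chr13:119690101-119690400, plus strand: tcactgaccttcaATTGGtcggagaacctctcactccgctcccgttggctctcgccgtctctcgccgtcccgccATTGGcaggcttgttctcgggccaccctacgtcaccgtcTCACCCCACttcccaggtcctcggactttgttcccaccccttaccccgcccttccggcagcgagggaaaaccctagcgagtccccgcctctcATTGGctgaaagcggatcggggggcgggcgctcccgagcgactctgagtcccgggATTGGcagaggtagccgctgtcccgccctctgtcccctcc
Cyp51, chr5:4104648-4104947, minus strand: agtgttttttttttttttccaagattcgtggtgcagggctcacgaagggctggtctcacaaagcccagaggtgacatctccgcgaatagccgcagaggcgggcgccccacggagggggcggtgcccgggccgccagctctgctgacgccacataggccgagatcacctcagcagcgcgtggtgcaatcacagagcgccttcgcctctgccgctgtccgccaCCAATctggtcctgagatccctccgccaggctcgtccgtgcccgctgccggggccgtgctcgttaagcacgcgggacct
Fasn, chr11:120824498-120824797, minus strand: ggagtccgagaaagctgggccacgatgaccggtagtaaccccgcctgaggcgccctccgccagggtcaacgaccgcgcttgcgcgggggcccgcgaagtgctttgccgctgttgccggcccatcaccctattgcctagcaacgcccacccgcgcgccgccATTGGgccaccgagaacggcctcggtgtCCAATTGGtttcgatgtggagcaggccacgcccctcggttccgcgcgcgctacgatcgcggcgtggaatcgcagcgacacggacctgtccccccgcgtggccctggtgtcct
Dhcr7, chr7:143829964-143830263, plus strand: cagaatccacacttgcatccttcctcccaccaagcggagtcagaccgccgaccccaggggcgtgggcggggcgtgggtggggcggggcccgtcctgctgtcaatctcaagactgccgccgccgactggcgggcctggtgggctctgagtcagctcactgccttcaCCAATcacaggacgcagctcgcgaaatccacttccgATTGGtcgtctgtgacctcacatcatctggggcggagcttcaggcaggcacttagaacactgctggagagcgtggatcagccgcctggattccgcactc
Elovl6, chr3:129532136-129532435, plus strand: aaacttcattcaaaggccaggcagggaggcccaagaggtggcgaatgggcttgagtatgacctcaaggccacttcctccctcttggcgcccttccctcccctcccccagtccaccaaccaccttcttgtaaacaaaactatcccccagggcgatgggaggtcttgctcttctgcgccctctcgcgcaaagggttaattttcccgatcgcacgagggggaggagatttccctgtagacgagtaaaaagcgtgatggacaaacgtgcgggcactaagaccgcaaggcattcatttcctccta

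The Hmgcs1 window held TCACCCCAC once on its own strand and CCAAT on the opposite strand at 4 places. Of 16 matched sterol enzymes, Hsd17b7 among them, 15 had CCAAT in a window on either strand, as had 4 of 5 regulators and transport genes and 6 of 9 fatty acid enzymes. Among the 8254 genes of the expression table with a window, 42.9% had it, and among all 32851 windows 37.4%. The matched members without CCAAT were Acat2, Scap, Acaca, Elovl6 and Fads2, all but Scap called lower with dexamethasone below. Ggps1, Acss2, Elovl1 and Elovl5, which were not called there, and Dhcr7, which was higher, had CCAAT. TCACCCCAC was found for Hmgcs1 only, 1 of the 30 matched members (3.33%), and for 0.715% of the matched genes of the expression data. GGGCGG, bound by Sp1, occurred in 24 of 30 members (80.0%) and in 71.5% of the matched genes, and the E-box CACGTG in 6 of 30 (20.0%) and 12.3%. All 4 motifs were searched on either strand, and in the printed windows the one overlap is in Fasn, where CCAAT and ATTGG share letters. Of 3 windows matched for Dhcr7, the one printed is the one with CCAAT, and a gene counts as having a motif if any of its windows holds it. The Cyp51 window held 1 CCAAT, the Fasn window 3 on the 2 strands and the Elovl6 window 0. These matches describe the letters of the windows and show neither binding nor its absence.

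Comparing dexamethasone with vehicle addressed how the glucocorticoid altered expression of these genes. Of the 37 measured members, 30 fell and 2 rose at an adjusted p under 0.05 (limma), and 5 were not called. Among all 10716 genes 20.9% were called lower and 12.7% higher, so the 81.1% of members called lower stood well above the background. The members were chosen with earlier results of these data known, so this excess is a description and was not tested. Of all called genes 37.8% were higher as deposited, and 49.6% with median-ratio scaling, while the member counts stayed as given. The sterol branch held 16 lower enzymes and 1 higher of 18, with a median log2 fold change of -0.67. The fatty acid branch held 9 lower and 0 higher of 12, with a median of -0.52. Over all 10716 genes the median was -0.05. The groups did not overlap, with all dexamethasone libraries below all vehicle libraries, for 16 of 18 sterol enzymes and 9 of 12 fatty acid enzymes, where 27.9% of all genes did so. Because RNA came from bulk cultures, fewer cells of a type and less RNA per cell cannot be told apart.

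**Figure D1:**
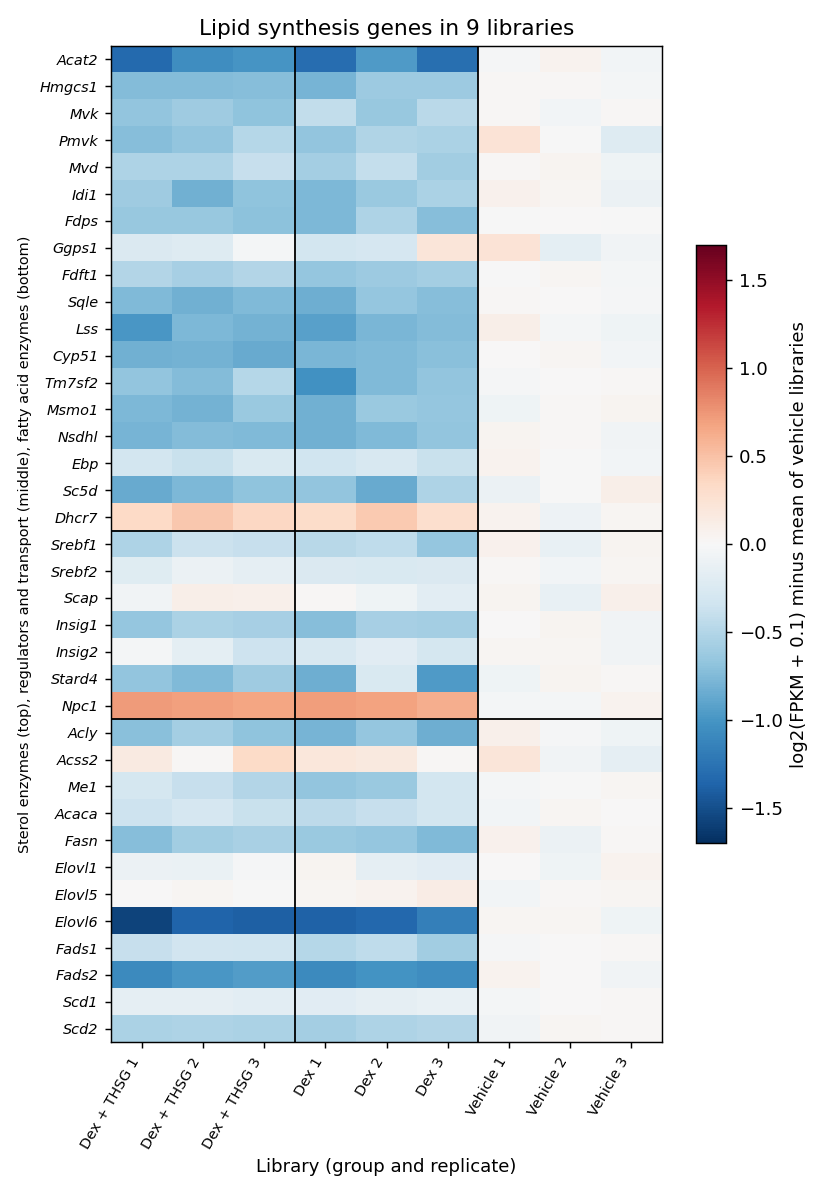
Colour shows log2(FPKM + 0.1) of each measured member (down the page) in each of the 9 libraries (across), minus the mean of the 3 vehicle libraries, with lines between gene groups and between treatment groups. The 6 libraries with dexamethasone are blue, that is lower, for most genes, Dhcr7 and Npc1 are red, and the columns with and without THSG look alike.

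The entry steps of the sterol route were lower throughout. Acat2, the cytosolic thiolase that joins acetyl-CoA units, was at 14.2, 17.9 and 14.3 FPKM with dexamethasone, against 34.4, 36.3 and 33.9 FPKM with vehicle. No dexamethasone library came near the vehicle range, and the fall was the largest of the sterol branch (log2 fold change -1.18, SE 0.099, limma adjusted p = 3.03e-06). Hmgcs1, the HMG-CoA synthase that commits carbon to mevalonate, was at 45.4, 51.4 and 51.0 FPKM with dexamethasone, against 79.6, 79.5 and 77.0 FPKM with vehicle. It fell by 37.4% (log2 fold change -0.68, SE 0.051, limma adjusted p = 1.21e-06). Mvk, Pmvk and Mvd, which phosphorylate mevalonate and decarboxylate the product to the first isoprenoid unit, had log2 fold changes between -0.57 and -0.51. Their levels were modest, with means of 12.1, 16.7 and 18.1 FPKM with dexamethasone, against 17.1, 25.1 and 26.0 FPKM with vehicle.

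Among the isoprenoid steps, Idi1 and Fdps were lower and Ggps1 was not called. Idi1, which interconverts the isoprenoid isomers, averaged 36.8 ± 3.0 FPKM with dexamethasone and 57.5 ± 3.4 FPKM with vehicle (SD, n = 3 each). Fdps, which makes farnesyl pyrophosphate and was the most abundant sterol enzyme, averaged 118 ± 11 FPKM with dexamethasone and 188 ± 1.5 FPKM with vehicle (SD, n = 3 each), a log2 fold change of -0.67. The dexamethasone spread of Fdps came mainly from replicate 2, at 130.5 FPKM beside 110.2 and 114 FPKM. Ggps1 makes the longer geranylgeranyl unit used to anchor proteins and leads away from sterols. It was at 8.86, 9.06 and 12.7 FPKM with dexamethasone and 13.0, 9.77 and 10.6 FPKM with vehicle. Its groups overlapped only through dexamethasone replicate 3, as its other dexamethasone replicates lay below all vehicle libraries. Its log2 fold change of -0.13 was not called (95% interval from -0.44 to 0.18, limma adjusted p = 0.52), and that interval ends short of the fold changes of Fdps and Fdft1, though the difference between genes was not tested. Fdft1, squalene synthase, the first enzyme committed to sterols, was at 30.3, 31.3 and 32.3 FPKM with dexamethasone, against 48.1, 49.2 and 46.9 FPKM with vehicle. Its libraries were tightly grouped, and the log2 fold change came to -0.62 (SE 0.046, limma adjusted p = 9.78e-07).

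From squalene to lanosterol and on to the late sterols, 7 enzymes had log2 fold changes between -0.81 and -0.68. Sqle, squalene epoxidase, was at 34.3, 38.7 and 37.2 FPKM with dexamethasone, against 61.9, 61.3 and 60.4 FPKM with vehicle. Cyp51, which removes a methyl group from lanosterol, was at 32.4, 33.0 and 34.0 FPKM with dexamethasone, against 55.9, 57.1 and 53.8 FPKM with vehicle. Nsdhl, of the demethylation complex, was at 29.4, 30.6 and 32.6 FPKM with dexamethasone, against 53.3, 52.6 and 49.6 FPKM with vehicle. The groups were well apart for each of the 3 genes, with log2 fold changes of -0.74 for Sqle, -0.75 for Cyp51 and -0.75 for Nsdhl. Lss, which closes the sterol rings, and Tm7sf2, a sterol reductase, had log2 fold changes of -0.81 each. Msmo1, a methylsterol oxidase, had one of -0.70 and Sc5d, a desaturase, one of -0.68.

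Among the late enzymes, Ebp and Dhcr7 departed from this, while Sc5d did not. Ebp, the sterol isomerase, fell by 20.4% only, with a mean of 55.9 ± 2.1 FPKM with dexamethasone and 70.3 ± 2.8 FPKM with vehicle (SD, n = 3 each). Dhcr7 reduces 7-dehydrocholesterol to cholesterol and was the one sterol enzyme that rose. It was at 57.1, 62.8 and 56.5 FPKM with dexamethasone, against 48.0, 43.7 and 47.1 FPKM with vehicle. Every dexamethasone library lay above every vehicle library, a difference of 0.35 on the log2 scale (SE 0.058, limma adjusted p = 0.000669). The ratio of Dhcr7 to Ebp within a library does not depend on scaling between libraries. This ratio, like the others below, was chosen after the values were seen and was not tested, and it was 1.03 to 1.08 with dexamethasone and 0.625 to 0.695 with vehicle.

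**Figure D2:**
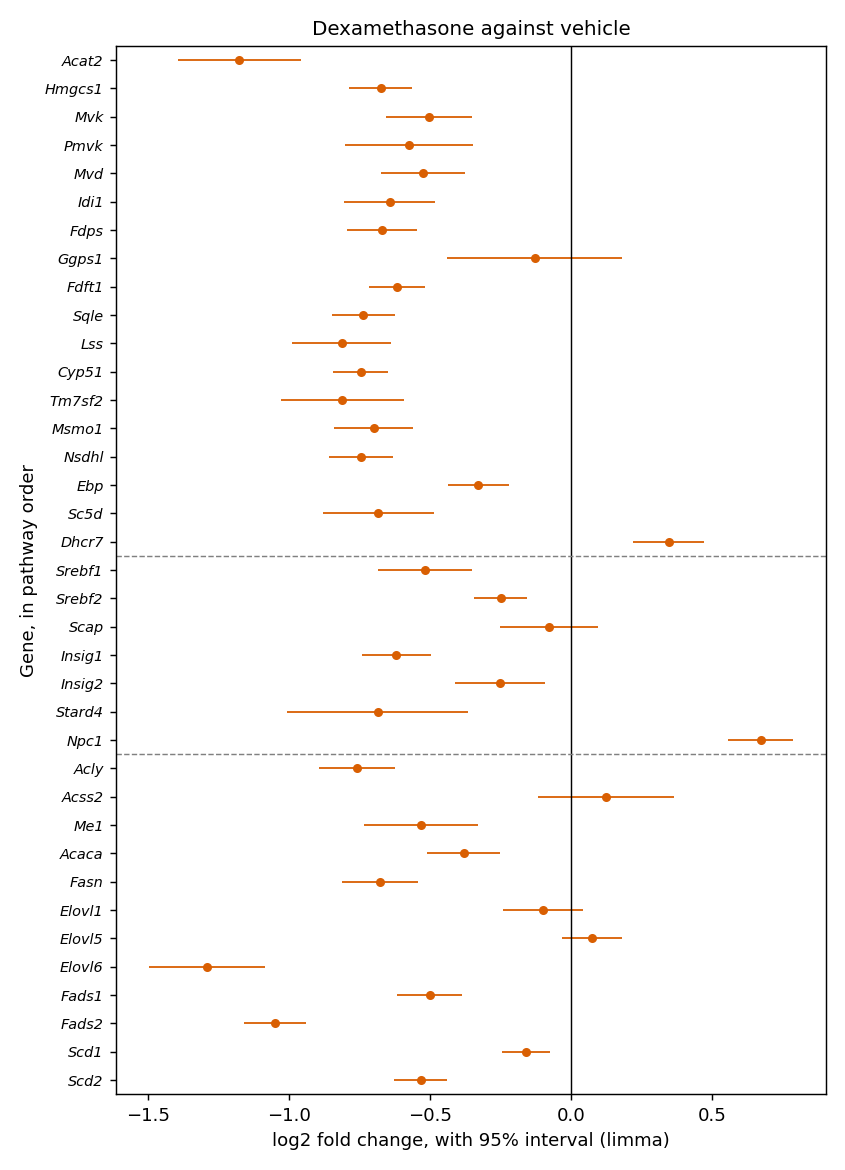
Points are log2 fold changes of dexamethasone over vehicle (horizontal axis) with 95% intervals from limma, for the 37 members in pathway order, sterol enzymes at the top, regulators and transport in the middle and fatty acid enzymes at the bottom. Most points lie left of 0; Dhcr7 and Npc1 lie to the right, and the intervals of Ggps1, Scap, Acss2, Elovl1 and Elovl5 span 0.

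Among the regulators, both SREBP genes were lower and the escort gene was not called. Srebf1 was at 26.8, 27.5 and 23.4 FPKM with dexamethasone, against 39.0, 34.0 and 38.3 FPKM with vehicle, a change of -0.52 on the log2 scale (SE 0.076, limma adjusted p = 0.000262). The table gives one value per gene, so the SREBP-1a and SREBP-1c transcripts were not told apart. Srebf2 was at 72.2, 71.8 and 71.9 FPKM with dexamethasone, against 86.7, 82.6 and 87.7 FPKM with vehicle. The groups did not overlap, and the fall of 16.0% was smaller (log2 fold change -0.25, SE 0.043, limma adjusted p = 0.000794). Srebf1 stood at 0.325 to 0.383 of the Srebf2 level with dexamethasone and at 0.411 to 0.450 with vehicle. Scap was at 14.4, 13.5 and 12.5 FPKM with dexamethasone and 14.7, 13.0 and 15.0 FPKM with vehicle. These values overlapped, and the log2 fold change of -0.08 had a 95% interval from -0.25 to 0.10.

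The genes that restrain SREBPs fell too. Insig1, itself a target of SREBPs, was at 41.1, 45.9 and 45.4 FPKM with dexamethasone, against 68.2, 70.3 and 65.1 FPKM with vehicle, a change of -0.62 on the log2 scale (SE 0.056, limma adjusted p = 5.25e-06). Insig2, the less sterol-responsive paralog, was at 29.2, 30.7 and 28.6 FPKM with dexamethasone, against 36.0, 35.8 and 33.6 FPKM with vehicle. Its groups did not overlap, but the fall was small (log2 fold change -0.25, limma adjusted p = 0.0191). That call ended when vehicle replicate 1 or 2, or dexamethasone replicate 1 or 3, was left out (adjusted p between 0.0527 and 0.0623). The ratio of Insig1 to Insig2 was 1.41 to 1.59 with dexamethasone and 1.89 to 1.97 with vehicle.

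Of the 2 transport genes, one fell and the other rose. Stard4, a carrier that moves cholesterol between membranes, was at 6.25, 9.30 and 5.68 FPKM with dexamethasone, against 10.6, 11.6 and 11.4 FPKM with vehicle. Dexamethasone replicate 2 stood above the other 2 of its group yet below all vehicle libraries, and the log2 fold change came to -0.69 (SE 0.147, limma adjusted p = 0.00365). Npc1, which exports cholesterol from lysosomes, was at 26.4, 25.7 and 24.7 FPKM with dexamethasone, against 15.7, 15.6 and 16.8 FPKM with vehicle. It was the largest rise among the members, a difference of 0.67 on the log2 scale (SE 0.052, limma adjusted p = 1.61e-06).

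**Figure D3:**
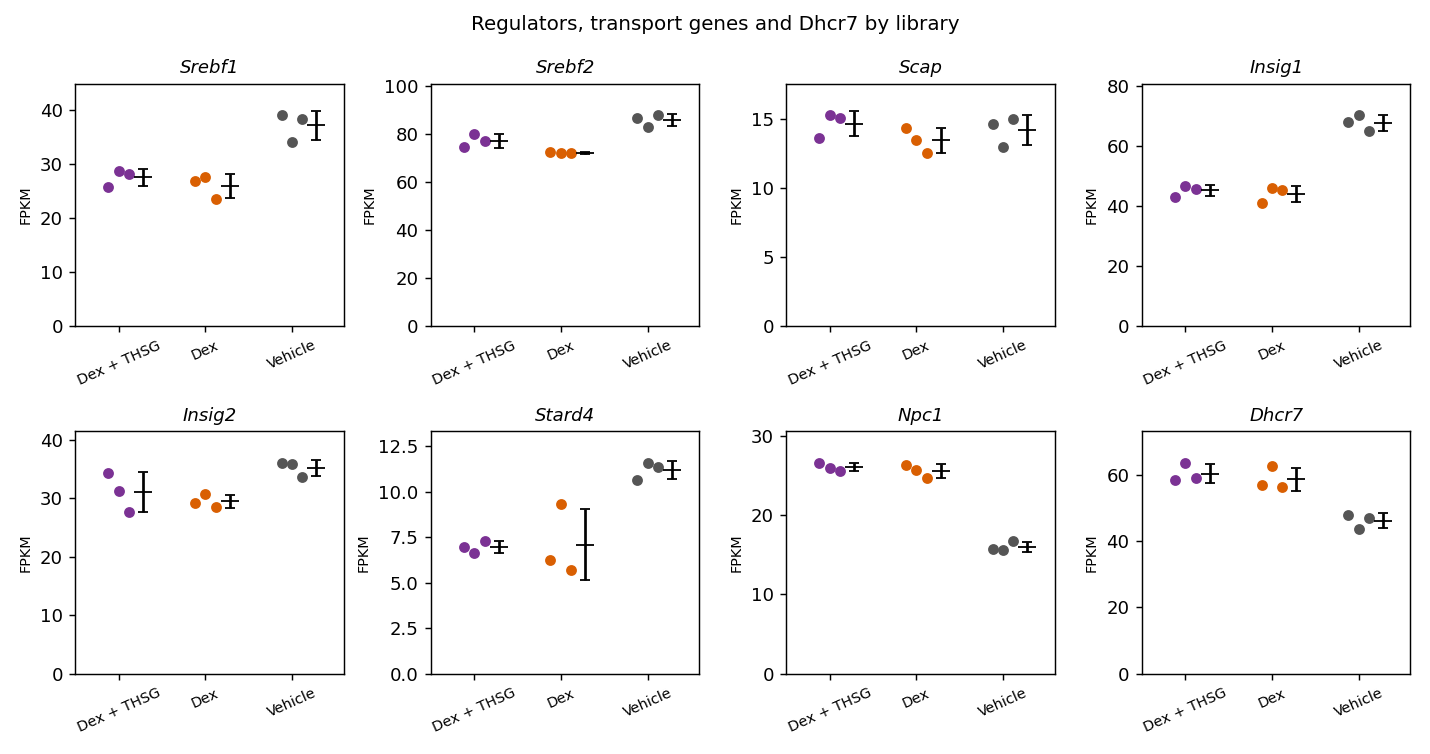
Each point is the FPKM (vertical axis, from 0) of one library for the 7 regulator and transport genes and Dhcr7, and black marks beside the points give the mean and SD of the 3 libraries of a group. Npc1 and Dhcr7 are higher and Srebf1, Srebf2, Insig1, Insig2 and Stard4 lower with dexamethasone than with vehicle, while the Scap values overlap.

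In the fatty acid branch 3 of 12 members were not called (Acss2, Elovl1 and Elovl5), against 1 of 18 in the sterol branch. Its log2 fold changes spanned -1.29 to 0.12, and those of the sterol branch -1.18 to 0.35. In the supply of acetyl-CoA, Acly, which cleaves citrate in the cytosol, was at 33.2, 36.5 and 32.5 FPKM with dexamethasone, against 61.3, 56.8 and 55.0 FPKM with vehicle. The groups were far apart (log2 fold change -0.76, SE 0.061, limma adjusted p = 2.18e-06). Acss2, which makes acetyl-CoA from acetate, was at 8.85, 8.66 and 7.83 FPKM with dexamethasone and 8.96, 7.42 and 6.97 FPKM with vehicle. Those values overlapped, and its log2 fold change of 0.12 had a 95% interval from -0.12 to 0.36. Me1, malic enzyme, a source of NADPH, averaged 11.4 ± 1.6 FPKM with dexamethasone and 16.5 ± 0.31 FPKM with vehicle (SD, n = 3 each), a log2 fold change of -0.53.

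Acaca and Fasn both fell, to different extents. Acaca, acetyl-CoA carboxylase 1, was at 13.4, 13.9 and 14.7 FPKM with dexamethasone, against 17.7, 18.7 and 18.3 FPKM with vehicle, and fell by 23.2% (log2 fold change -0.38, SE 0.059, limma adjusted p = 0.000396). Fasn, fatty acid synthase, was at 44.1, 43.5 and 40.5 FPKM with dexamethasone, against 72.0, 63.9 and 69.3 FPKM with vehicle, and fell by 37.5% (log2 fold change -0.68, SE 0.062, limma adjusted p = 5.66e-06). The Fasn change was close to that of Hmgcs1 in the sterol branch (log2 fold change -0.68), and the Acaca change was smaller than either.

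Of the 3 elongases, 1 fell and 2 were not called. Elovl6, which lengthens palmitate to stearate, was at 4.33, 4.42 and 5.0 FPKM with dexamethasone, against 11.6, 11.7 and 10.8 FPKM with vehicle. It fell by 59.2%, the most of all members (log2 fold change -1.29, SE 0.094, limma adjusted p = 8.97e-07). Elovl5, an elongase of polyunsaturated fatty acids, was at 28.8, 29.6 and 30.9 FPKM with dexamethasone and 27.3, 28.7 and 28.9 FPKM with vehicle. These groups overlapped, and its 95% interval ran from -0.03 to 0.18 on the log2 scale. Elovl1, which makes very long chains, had a 95% interval from -0.24 to 0.04. Without dexamethasone replicate 1 it was called lower (-0.17, adjusted p = 0.037). The ratio of Elovl6 to Elovl5 within a library was 0.150 to 0.162 with dexamethasone and 0.374 to 0.424 with vehicle.

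The desaturases came in neighbouring pairs that moved by unequal amounts. Fads2, the delta-6 desaturase that opens the polyunsaturated route, was at 31.3, 32.9 and 32.1 FPKM with dexamethasone, against 69.2, 66.5 and 63.9 FPKM with vehicle. It had the smallest p of all members (log2 fold change -1.05, SE 0.050, limma adjusted p = 2.53e-08). Fads1, the delta-5 desaturase, was at 24.2, 25.0 and 22.4 FPKM with dexamethasone, against 33.4, 33.9 and 34.2 FPKM with vehicle, a log2 fold change of -0.50. Fads2 was 1.29 to 1.43 times the level of Fads1 with dexamethasone and 1.87 to 2.07 times with vehicle.

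The stearoyl-CoA desaturases, which place the first double bond, were the most abundant members. Scd2 was at 354, 367 and 375 FPKM with dexamethasone, against 509, 541 and 536 FPKM with vehicle, a change of -0.53 on the log2 scale (SE 0.043, limma adjusted p = 1.97e-06). Scd1 was at 245, 252 and 256 FPKM with dexamethasone, against 275, 281 and 285 FPKM with vehicle. Its groups did not overlap, but the fall of 10.5% was the smallest of the called members (log2 fold change -0.16, limma adjusted p = 0.00686), and with quantile normalization it was not called (-0.08, adjusted p = 0.255). Scd1 and Scd2 are closely related in sequence, and how reads matching both were counted is not stated, so the split between them is uncertain. The ratio of Scd2 to Scd1 was 1.45 to 1.46 with dexamethasone and 1.85 to 1.92 with vehicle.

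Set side by side, both branches were mostly lower with dexamethasone. Below a log2 fold change of -0.5 lay 15 of 18 sterol enzymes and 7 of 12 fatty acid enzymes. Summed over the branch, sterol enzymes held 585 ± 28 FPKM with dexamethasone and 873 ± 17 FPKM with vehicle (SD, n = 3 each). Fatty acid enzymes held 875 ± 12 FPKM with dexamethasone and 1180 ± 14 FPKM with vehicle (SD, n = 3 each). The fatty acid sum was 1.44 to 1.55 times the sterol sum with dexamethasone and 1.31 to 1.39 times with vehicle, ranges that did not overlap. Scd1 and Scd2 made up 69.5% to 71.4% of the fatty acid sum with dexamethasone and 67.4% to 69.4% with vehicle, so this pair carries most of that sum. No test was made of the difference between branches, since the members of a branch are not replicates.

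**Figure D4:**
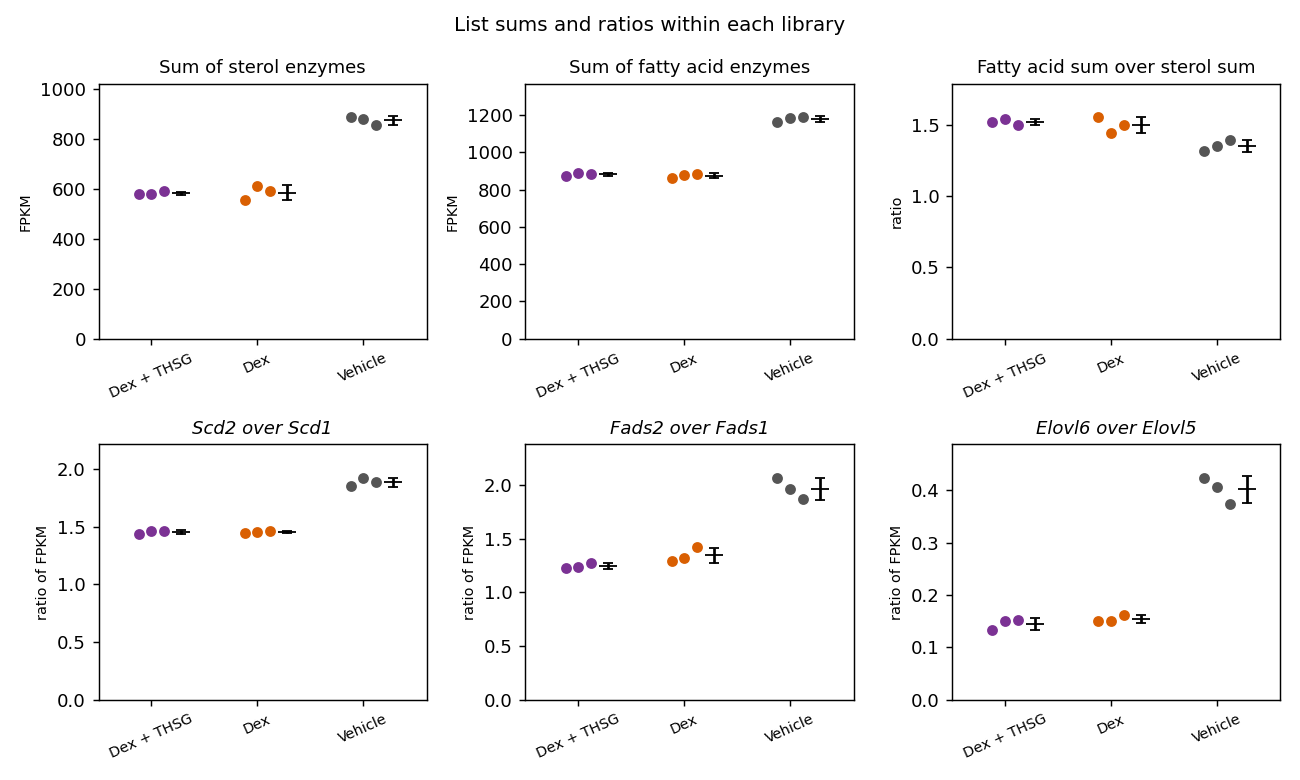
The upper panels plot summed FPKM of each branch and the ratio of the sums in every library, and the lower panels plot ratios between pairs of related enzymes, with black marks for the mean and SD of 3 libraries and axes from 0. Both sums and all 3 pair ratios are lower in the libraries with dexamethasone than in vehicle, while the ratio of the fatty acid sum to the sterol sum is higher.

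Genes of the same routes outside the set were taken from a pair of further lists. Of 32 other sterol genes, 30 were measured, and 12 (40%) were lower and 4 (13.3%) higher with dexamethasone (limma). Of all genes 20.9% were lower and 12.7% higher. Among the other sterol genes Lrp1, an endocytic receptor, had a log2 fold change of -0.61. Of 34 other fatty acid genes, 24 were measured, and 4 were lower and 5 higher, close to the background of 20.9% lower and 12.7% higher among all genes. Slc25a1, which exports citrate from mitochondria to supply Acly, was at 15.1, 17.7 and 16.6 FPKM with dexamethasone, against 33.2, 32.9 and 33.6 FPKM with vehicle (log2 fold change -1.01). G6pdx and Pgd, the NADPH-producing enzymes of the pentose phosphate route, each fell, G6pdx with a log2 fold change of -0.58 and Pgd with one of -0.44. Cyb5a, cytochrome b5, an electron donor of the desaturases, rose, with 34.5 ± 3.3 FPKM with dexamethasone and 19.7 ± 3.0 FPKM with vehicle (SD, n = 3 each, log2 fold change 0.82). The rest of the called genes in that list were Acsl3, which was lower (-0.27), and 4 that were higher. Those were Acsl1 (0.45), Mlxip (0.45), Acsl4 (0.29) and Hacd1 (0.19).

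Markers of other cell states moved in the same comparison, in which 20.9% of all genes were called lower and 12.7% higher. All 10 measured of 12 proliferation markers were called lower with dexamethasone, and their summed level was 41.6 to 45.4 FPKM with dexamethasone and 91.7 to 99.5 FPKM with vehicle. Of 6 measured fibroblast markers out of 10, 5 were lower and 1 (Pdgfra) higher, with sums of 1630 to 1660 FPKM with dexamethasone and 3143 to 3265 FPKM with vehicle. Of 10 adipocyte markers only Cebpa and Pparg were measured, with sums of 28.4 to 29.8 FPKM with dexamethasone and 7.54 to 9.84 FPKM with vehicle. Cebpa was called higher (means of 26.5 FPKM with dexamethasone and 6.25 FPKM with vehicle) and made up most of that sum. Pparg was not called, with means of 2.74 FPKM with dexamethasone and 2.33 FPKM with vehicle and overlapping groups (limma adjusted p = 0.308). The defining adipocyte genes Adipoq, Plin1 and Fabp4 were not analysed here. Of the myotube markers, 8 of 12 were higher and 1 (Des) lower. The part of these shifts in the lipid synthesis results was not tested.

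Several members share exons with a neighbouring gene that was measured too. The kit is strand-specific, but the strand setting of the counting is not stated. Exons of Fdft1 overlap Ctsb, Cyp51 Akap9, Npc1 Rmc1, Srebf1 Rai1, Ggps1 Arid4b, Acss2 Gss and Ggt7, and Elovl1 Cdc20, all on the opposite strand. Tm7sf2 overlaps Vps51 on the same strand. Cdc20, a mitotic gene, had a log2 fold change of -1.67 but only 2.00 FPKM with dexamethasone and 6.60 FPKM with vehicle, and Gss one of -0.26. The other 7 partners had log2 fold changes between -0.16 and 0.14 and were not called.

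The effect of THSG on top of the glucocorticoid was read from dexamethasone plus THSG against dexamethasone. Of 37 members 0 were called by limma, and of all 10716 genes 0 were called (0% background), with 777 genes (7.25%) at an unadjusted p under 0.05. The member log2 fold changes lay between -0.15 and 0.17, with medians of -0.03 for sterol enzymes, 0.04 for fatty acid enzymes and 0.02 for all genes. The 95% intervals reached from -0.36 to 0.39 at the extremes, 31 of 37 lay wholly within 0.3 of 0, and 35 held 0. These intervals are not adjusted for the 10716 genes tested, so a change had to exceed their widths to be called. The data therefore do not show that THSG left the genes as they were.

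**Figure D5:**
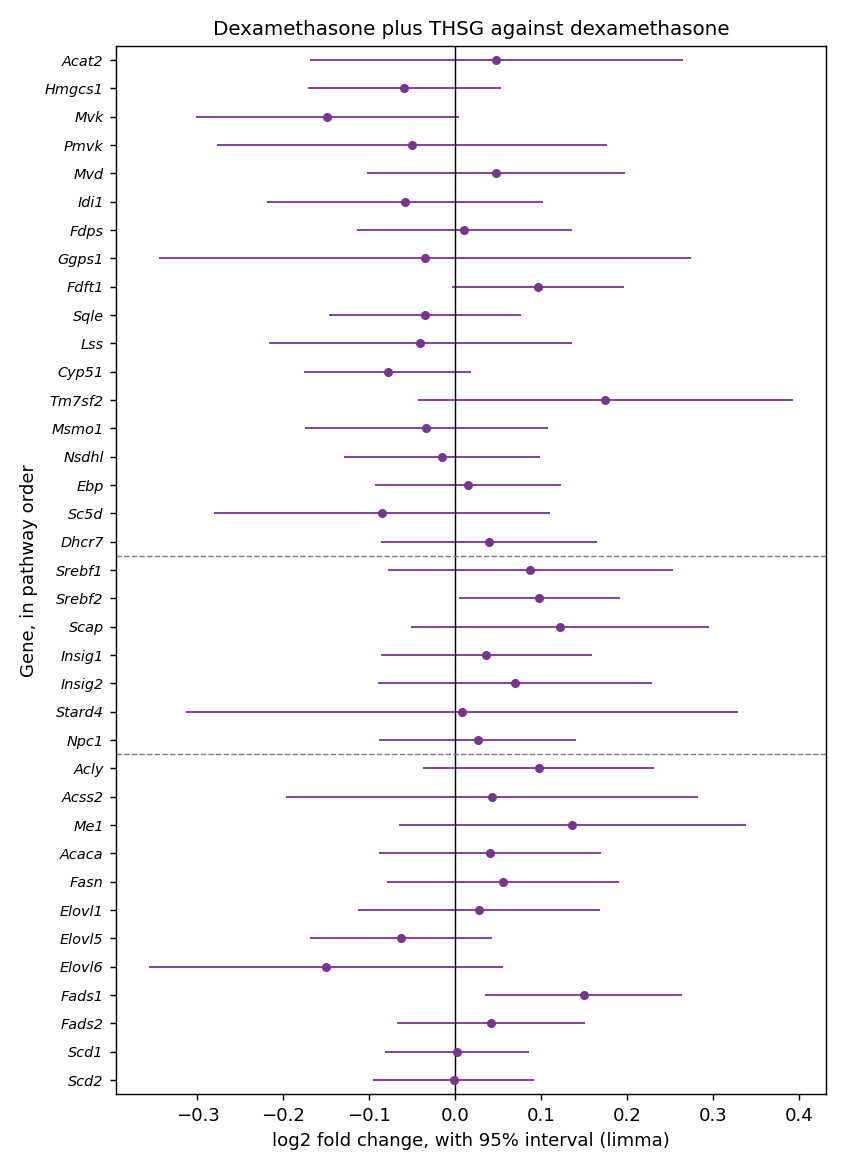
Points are log2 fold changes of dexamethasone plus THSG over dexamethasone (horizontal axis) with 95% intervals from limma, in the same pathway order. All points lie between -0.15 and 0.17 and only the intervals of Fads1 and Srebf2 leave out 0.

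The 2 members with the smallest p were Fads1 and Srebf2. Fads1 was at 25.7, 26.9 and 26.8 FPKM with dexamethasone plus THSG, against 24.2, 25.0 and 22.4 FPKM with dexamethasone. All libraries with THSG lay above all without, but the log2 fold change of 0.15 (SE 0.052) did not pass over all genes (limma adjusted p = 0.589). Srebf2 was at 74.3, 79.9 and 77.0 FPKM with dexamethasone plus THSG, against 72.2, 71.8 and 71.9 FPKM with dexamethasone, a log2 fold change of 0.10 (limma adjusted p = 0.683). Of the members, 3 had all THSG libraries above all dexamethasone libraries (Fads1, Srebf2 and Fdft1) and 1 had them below (Cyp51). Among all genes 8.41% and 4.84% did so, shares that these counts do not exceed. Tm7sf2 (0.17) and Elovl6 (-0.15) marked the ends of the range, and neither was called.

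The members that stood apart under dexamethasone stood at similar levels with THSG. Dhcr7 was at 58.4, 63.7 and 59.1 FPKM and Npc1 at 26.6, 25.9 and 25.6 FPKM with dexamethasone plus THSG, with log2 fold changes over dexamethasone of 0.04 (95% interval from -0.09 to 0.17) and 0.03 (from -0.09 to 0.14). For Hmgcs1, at 47.1, 46.9 and 47.7 FPKM with THSG, the value was -0.06 (from -0.17 to 0.05). For Fasn, at 41.2, 45.5 and 46.6 FPKM with THSG, it was 0.06 (from -0.08 to 0.19). Summed over the branch, sterol enzymes held 581 ± 6.9 FPKM with dexamethasone plus THSG and 585 ± 28 FPKM with dexamethasone (SD, n = 3 each). Fatty acid enzymes held 883 ± 7.5 FPKM with dexamethasone plus THSG and 875 ± 12 FPKM with dexamethasone (SD, n = 3 each). Proliferation markers summed to 43.4 to 45.9 FPKM with dexamethasone plus THSG, overlapping the range with dexamethasone alone.

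Comparing dexamethasone plus THSG with vehicle again put most of the set below its vehicle level. This comparison shares the vehicle libraries with the one of dexamethasone alone, so its values are not independent of those above. Of 37 members 29 were called lower and 2 higher, where 17% and 12.1% of all genes were (limma). By branch 16 of 18 sterol enzymes were lower and 1 higher, and 9 of 12 fatty acid enzymes were lower and 0 higher. The medians were -0.68 for sterol enzymes, -0.37 for fatty acid enzymes and -0.04 for all genes. Acat2 had a log2 fold change of -1.13, Hmgcs1 of -0.73, Cyp51 of -0.82, Elovl6 of -1.44, Fads2 of -1.01, Fasn of -0.62 and Fads1 of -0.35. Dhcr7 rose by 0.39 and Npc1 by 0.70 on the log2 scale.

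One regulator was called with dexamethasone alone and not with THSG added. Insig2 was at 34.3, 31.2 and 27.6 FPKM with dexamethasone plus THSG, against 36.0, 35.8 and 33.6 FPKM with vehicle (log2 fold change -0.18, limma adjusted p = 0.0817). Between the groups with and without THSG its log2 fold change was 0.07 (95% interval from -0.09 to 0.23), so no difference between them was shown. Without THSG replicate 1 it was called lower than vehicle (-0.26, adjusted p = 0.0164). Srebf2 was called lower (log2 fold change -0.15, limma adjusted p = 0.0185), but not with median-ratio scaling, with equal sums per library, without the intensity trend, or when vehicle replicate 1 or 3 or THSG replicate 1 or 3 was left out (adjusted p between 0.051 and 0.0712).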

How the data were processed

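RNA from 9 C2C12 myotube libraries was sequenced, 3 per group. Per the labels' protocols, RNA was isolated with a Hybrid-R kit and libraries were made with a TruSeq stranded mRNA kit. Alignment tools and build appear in the submitters' processing notes as GRCm39 (mm39), STAR 2.7.10a and featureCounts. The deposited table is named for counts, but its values are fractional and all above 1, so they were taken to be FPKM as computed by the authors. How counts were scaled and filtered is not given in the sources used here, and sequencing depth is unknown. Groups followed the sample titles, since the cell line field gives a rising number.

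The values were analysed as log2(FPKM + 0.1) in limma 3.58.1 (R 4.3.3), with 1 mean per group, all 9 libraries sharing the variance, an intensity trend, two-sided tests and Benjamini-Hochberg adjustment over 10716 genes. The code was tested on simulated data. The members and lists were chosen with earlier results of these data known. Values in every library are given for the regulators, the 5 members per branch with the smallest p and members called against their list. They are also given for Hmgcs1, Acaca, Fasn, Scd1, Scd2 and the 2 members with the smallest p for THSG. Acat2, Ggps1, Stard4, Acss2, Elovl5 and the further values were added after they were seen. From the other lists the 4 genes with the smallest p were to be named; some of those in the sterol list are not reported here. Exon overlaps come from GENCODE M21 (GRCm38) and promoter windows from RefSeq (GRCm38.p6), matched by gene symbol; that build is not the one of the alignment. Alternatives covered the pseudocount, scaling, a minimum mean, the trend, the groups fitted, a replicate block and leaving out each library.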

Additional observations from a re-analysis of the deposited data

How the results depend on the processing

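Under the 9 other settings and with each of 9 libraries left out, the number of members called in a direction stayed within 1 of the value given, in all 3 comparisons. With dexamethasone against vehicle, 29 to 30 members were called lower and 2 higher when a library was left out, with 16 lower sterol enzymes each time and 9 to 10 lower fatty acid enzymes. For dexamethasone against vehicle the median log2 fold change of all genes was -0.05 as deposited, -0.03 with equal sums per library, 0.0037 with quantile normalization and -0.0029 with median-ratio scaling. For dexamethasone against vehicle the fatty acid median was -0.52, and it came to -0.47 under both median-ratio scaling and quantile normalization. Leaving out a library put it between -0.53 and -0.49 and the sterol median between -0.70 and -0.62. For dexamethasone plus THSG against vehicle, median-ratio scaling gave medians of -0.65 (sterol) and -0.34 (fatty acid), and quantile normalization -0.35 (fatty acid). Leaving out a library there gave -0.71 to -0.66 (sterol) and -0.39 to -0.35 (fatty acid). For dexamethasone plus THSG against dexamethasone, the fatty acid median lay between 0.0127 and 0.0482 with a library left out, and the sterol median between -0.08 and 0.0011. Centring the scaling changed the share of called genes that were higher with dexamethasone, which was 37.8% as deposited, 49.6% with median-ratio scaling, 42.3% with equal sums and 50.5% with quantile normalization. With the replicate block, 1 gene (Rps2-ps10, no member, named after its value was seen) was called for THSG, and 0 to 1 genes with a library left out (Cks2, also no member and named afterwards, without dexamethasone replicate 3). Deviations of same-numbered libraries correlated with r between -0.086 and 0.107, against -0.123 to 0.114 for other numbers, so the numbers did not pair the libraries, and the block changed no member call. Of 333 member values per comparison under the other settings, 1 call was lost for dexamethasone against vehicle and 4 for dexamethasone plus THSG against vehicle. The cause was not tested. For THSG against dexamethasone, 11 values changed sign (Fdps, Ebp, Stard4 and Scd1, all close to 0). The depth behind the values is unknown, so precision is known only from 3 libraries a group.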
